A study of Mus musculus with 2 samples.

Results

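The *Pax* gene family was followed in RNA-seq of ES cells and E10.5 forebrain of the mouse. Its members were taken by symbol, *Pax1* to *Pax9*, which gives 9 genes, of which 8 are among the 29311 genes with a deposited value. *Pax4* is not listed in either sample and was taken as 0 in both, as the tables hold no gene at 0 in both samples. The ES cells were of the E14 line with WT genotype, a line of pluripotent cells grown without feeder cells in serum and LIF. The E10.5 forebrain, called forebrain from here on, came from WT embryos of the B6CBAF1/J background, and the methods of the study state that its RNA was isolated from single embryos. It is a dissected tissue and not a sorted cell type. Each group is 1 sample of rRNA-depleted total RNA and there are no replicates, so that the 2 samples differ in genetic background, in culture and in tissue at the same time and these cannot be told apart. No p-value is given for a difference between them.

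*Pax* genes encode transcription factors that bind DNA through a paired domain, to which some members add a homeodomain. They fall into 4 subgroups of close relatives, *Pax1* and *Pax9*, *Pax2*, *Pax5* and *Pax8*, *Pax3* and *Pax7*, and *Pax4* and *Pax6*. In the embryo they pattern the neural tube, the eye, the neural crest, somites and pharyngeal pouches, and in the forebrain *Pax6* is known for its role in dorsal telencephalic progenitors and in the optic vesicle.

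As sequence from paralogs can be mistaken for each other when reads are mapped, the coding sequences of the subgroups were compared first. The longest stretches shared letter for letter are shown, since their length against that of a read sets how far close relatives can be separated.
*Pax3* and *Pax7*: ctggaagtgtccacccctcttggcca
*Pax1* and *Pax9*: atcctggcgcgctacaacgagaccgg
*Pax2* and *Pax8*: ggcaggtactacgagactggcagcatc
*Pax4* and *Pax6*: ctggagaaagagttt
These runs of 26, 26, 27 and 15 bases are shorter than a read of 50 bases. In any window of 50 bases the closest pair, *Pax2* and *Pax8*, still differed at 3 positions, *Pax3* and *Pax7* at 4, *Pax1* and *Pax9* at 4 and *Pax4* and *Pax6* at 9. Windows of 50 bases from the transcripts were also compared with those of all other genes. The share found in transcripts of another gene was 0.313% for *Pax1*, 0.414% for *Pax3*, 0.43% for *Pax5*, 3.82% for *Pax9* and 31.4% for *Pax6*. It was 0% for *Pax2*, *Pax4*, *Pax7* and *Pax8*. In windows of 100 bases it was 29.9% for *Pax6*, with *Elp4* as the only other gene. For *Pax9* it was 2.12%, with *Slc25a21* alone, and for the other members 0%. *Elp4* and *Slc25a21* are not paralogs, but overlap exons of *Pax6* and *Pax9* on the opposite strand, as described below. The number of mismatches that the mapping allowed is not given in the sources used here.

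As a family, *Pax* genes were at low level in ES cells and much higher in forebrain. The summed RPKM of the 9 genes, the deposited number of reads per kb of exon scaled within each sample, went from 22.59 in ES cells to 676.03 in forebrain, 29.93 times as much. A gene was called different where log2(RPKM + 1) differed by at least 2, which is 4-fold. By this measure 6 of the 9 genes (*Pax2*, *Pax3*, *Pax5*, *Pax6*, *Pax7* and *Pax9*) were higher in forebrain, none was higher in ES cells, and 3 (*Pax1*, *Pax4* and *Pax8*) stayed within 4-fold. Among all listed genes, 14.4% were higher in forebrain and 11.3% were higher in ES cells by the same measure. The median difference of log2(RPKM + 1) was 2.87 over the *Pax* genes and 0.01 over all listed genes. In bulk tissue, a lower level may come from fewer cells of a type or from less RNA per cell, and these cannot be told apart.

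The number of reads behind each value was inferred from the step between low values, which gave a total on genes of 42777768 reads for the ES cells and of 59770992 for the forebrain. All intervals given here are exact 95% intervals on these reads and cover counting error only. In ES cells the 9 genes were supported by 308 reads in total, of which *Pax6* had 285. Of the 6 members above 0 in ES cells, 3 (*Pax5*, *Pax7* and *Pax9*) rested on 1 read each. In E10.5 forebrain the family was supported by 9357 reads, and all 8 listed members had at least 3 reads. The deposited values are larger than reads per kb per 1000000 reads on genes, by 52.2 times in ES cells and by 49.0 times in forebrain. On that conventional scale *Pax6* was at 0.336 in ES cells and at 5.46 in forebrain, while *Pax3* was at 3.66, *Pax7* at 2.75 and *Pax9* at 1.63 in forebrain.

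**Figure D1:**
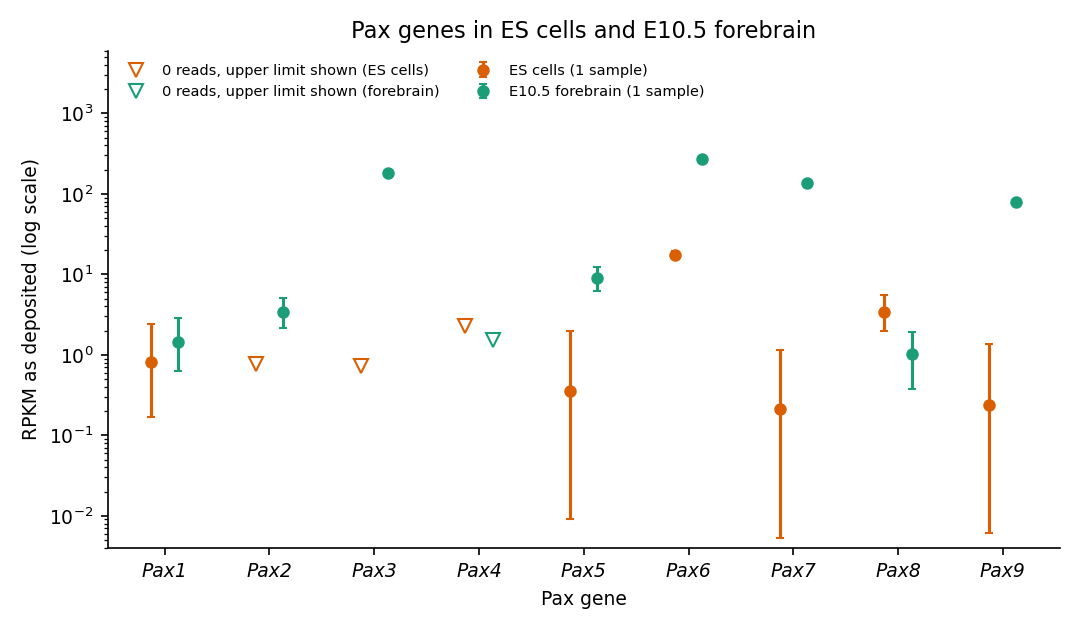
RPKM of the 9 *Pax* genes (x axis) on a log scale (y axis) in the ES cell sample and in the E10.5 forebrain sample, with exact Poisson 95% intervals of the inferred reads; open triangles mark genes without reads at their upper limit. *Pax3*, *Pax6*, *Pax7* and *Pax9* lie between 79.79 and 267.32 in forebrain, and in ES cells the highest gene is *Pax6* at 17.54.

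*Pax6*, which carries both a paired domain and a homeodomain, had the highest deposited value of the family in both samples. It lies at chr2:105509053-105543317 on the plus strand in NCBIM37 (mm9) and had an RPKM of 17.54 in ES cells (15.57 to 19.71). The forebrain value was 267.32 (260.8 to 273.9), which gives a 15.24-fold ratio (13.53 to 17.21). The 2 intervals are far apart. Relative to the other listed genes, *Pax6* stood at percentile 39.7 in ES cells and at percentile 67.92 in forebrain, so that it was below the median gene in the former and above it in the latter. *Pax6* alone made up 77.6% of the summed RPKM of the family in ES cells, against 39.5% in forebrain.

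The value of *Pax6* includes sequence that belongs to a second gene. *Elp4*, which encodes a subunit of the Elongator complex, is transcribed from the opposite strand and its exons overlap those of *Pax6* by 5542 bp, which is 27.9% of the *Pax6* exon length and 78.9% of that of *Elp4*. *Elp4* had 186.65 in ES cells, on 1074 reads, and 319.24 in forebrain, on 2737 reads, both above *Pax6*. The libraries were strand-specific, yet the deposited values did not separate strands. This was seen at 23 short genes that lie almost entirely within the exons of a highly expressed gene on the opposite strand. They differed from that gene by a median of -0.09 in ES cells and -0.04 in forebrain on the log2 scale, and 15 of the 23 were within 2-fold of it in each sample. Of 22 genes lying in the same way on the same strand, 12 in ES cells and 14 in forebrain were within 2-fold, with a median of -0.04 in both. How many of the *Pax6* reads came from the shared exons was not tested, since the tables give 1 value per gene. If every *Elp4* read were taken away from the *Pax6* value in forebrain and none in ES cells, 3734 reads would remain, with an RPKM of 154.2, and the ratio would be 8.79-fold. That RPKM is below the 179.32 of *Pax3*, but it is still divided by the whole *Pax6* exon length, with the shared 5542 bp included. In this extreme case *Pax6* would not be first in forebrain on the deposited scale. Its place by reads from the unshared exons alone was not tested. No lower limit of this kind can be set for the level in ES cells, where *Elp4* had more reads than *Pax6*. The antisense transcript *Pax6os1*, which shares no exon sequence with *Pax6*, had 2.64 in ES cells and 14.92 in forebrain, a difference of 2.13 on log2(RPKM + 1).

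*Pax3* and *Pax7*, which mark dorsal neural tube, neural crest and muscle progenitors, were close to absent in ES cells and were among the highest members in forebrain. *Pax3* (chr1:78097842-78193709, minus strand, NCBIM37) had no read in ES cells and an RPKM of 179.32 in forebrain (169.9 to 189.1), on 1354 reads. Against a floor of 3 reads in ES cells this is at least 303-fold higher, and the exact 95% interval used for the other ratios gives a lower limit of 246. *Pax7* (chr4:139292977-139389445, minus strand) rested on 1 read in ES cells, with an RPKM of 0.21, and reached 134.77 in forebrain (126.4 to 143.5), a ratio of 642 with an interval from 115.8 to 25575. No other annotated gene overlaps the exons of either gene. Together they held 46.5% of the summed RPKM of the family in forebrain, more than *Pax6*, and 0.93% in ES cells. This place above *Pax6* depends on the length used. Per kb of the longest coding transcript, *Pax3* held 24.61% and *Pax7* 11.56% in forebrain, together less than the 54.08% of *Pax6*. Of the nearest coding genes on the chromosome, none was called higher in forebrain. *Epha4* and *Sgpp2* on both sides of *Pax3* differed by -1.06 and 0.81 on log2(RPKM + 1), and *Tas1r2* and *Klhdc7a* beside *Pax7* by -0.49 and -3.29.

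*Pax9*, which acts in pharyngeal pouches, tooth and palate mesenchyme and sclerotome, had the fourth highest value in forebrain. It lies at chr12:57792754-57813809 on the plus strand (NCBIM37) and had an RPKM of 0.24 in ES cells, on 1 read. Its forebrain value was 79.79 (72.83 to 87.09), on 492 reads, with a ratio of 332.5 (58.98 to 13066). Its exons overlap those of *Slc25a21*, a mitochondrial carrier gene on the opposite strand, by 189 bp, and *Slc25a21* went from 0.25 to 36.32. With all 213 reads of *Slc25a21* taken from the forebrain value, *Pax9* would keep 279 reads. *Pax1*, its close paralog and a gene of sclerotome and thymus, did not follow. It had 0.82 in ES cells (0.1682 to 2.383), on 3 reads, and 1.46 in forebrain (0.6299 to 2.875), on 8 reads, and the interval of the ratio of 1.78 ran from 0.4295 to 10.47, so that no difference was detectable at this depth. The nearest listed coding genes beside *Pax1*, *Nkx2-2* and *Foxa2*, lie 168 and 650 kb away. Both were higher in forebrain, from 0.42 to 35.14 and from 1.55 to 30.07. Nearest to *Pax9* without overlap were *Nkx2-9* and *Prps1l3*, 78.5 and 518 kb away. They differed by -0.09 and -0.75 on log2(RPKM + 1).

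*Pax2*, *Pax5* and *Pax8*, the subgroup of the midbrain-hindbrain boundary, kidney, thyroid and B cells, were low in both samples. Their summed RPKM was 3.78 in ES cells and 13.37 in forebrain, which is 1.98% of the family in the latter. *Pax5*, a regulator of B-cell identity and of the midbrain-hindbrain boundary, had 0.36 in ES cells, on 1 read, and 8.97 in forebrain (6.233 to 12.2), on 37 reads, a ratio of 24.92 with an interval from 4.188 to 1007. *Pax2*, a gene of the optic stalk, ear and kidney, had no read in ES cells and 3.39 in forebrain (2.171 to 5.042), on 24 reads. Against the floor of 3 reads this is at least 5.37-fold higher, and the lower limit of the exact 95% interval is 4.039. *Pax8*, a regulator of thyroid and kidney development, was the only member with a higher value in ES cells, with 3.42 (1.99 to 5.47), on 17 reads, against 1.01 in forebrain (0.3795 to 1.945), on 7 reads. The 2 intervals only just missed each other, and the forebrain reads had been rounded down from 7.491, so that this separation is not secure. The 3.39-fold ratio (1.426 to 10.32) remained below 4-fold. *Pax4*, which acts in pancreatic endocrine cells, was without reads in both samples, where 3 reads would correspond to an RPKM of 1.874 and 1.257, respectively.

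**Figure D2:**
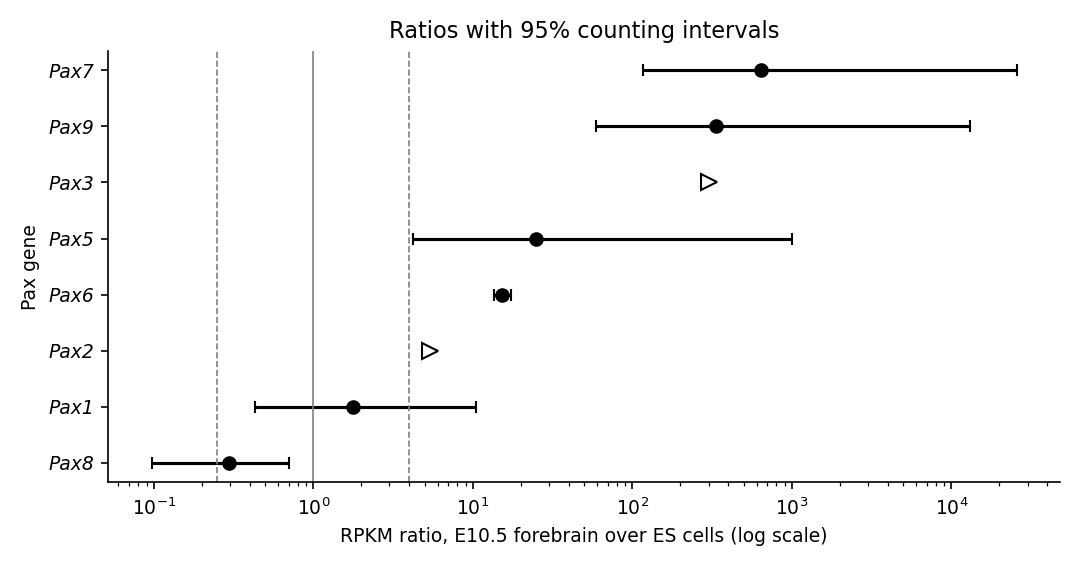
RPKM ratio of E10.5 forebrain over ES cells (x axis, log scale) for the 8 listed *Pax* genes (y axis), with exact 95% intervals of the inferred reads; open triangles are lower limits against a floor of 3 reads, and dashed lines mark 4-fold. *Pax7* has a ratio of 642 on 1 read in ES cells, *Pax3* has only a lower limit, the interval of *Pax1* spans equality, and *Pax8* lies below 1.

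By deposited values in forebrain, the intervals of neighbouring members were separate from *Pax6* down to *Pax2*, with the limit for *Pax6* given above. *Pax6* was 1.49-fold above *Pax3*, *Pax3* was 1.33-fold above *Pax7*, *Pax7* was 1.69-fold above *Pax9*, *Pax9* was 8.9-fold above *Pax5*, and *Pax5* was 2.65-fold above *Pax2*. Below that, the intervals of neighbours (*Pax2*, *Pax1*, *Pax8* and *Pax4*) overlapped. The 4 highest genes held 97.8% of the summed RPKM. In ES cells the order was *Pax6*, *Pax8*, *Pax1*, *Pax5*, *Pax9* and *Pax7*, but only the step from *Pax6* to *Pax8*, 5.13-fold, had separate intervals. These intervals leave out reads shared with *Elp4*, which had 1074 reads in ES cells against 285 for *Pax6*. The first place of *Pax6* there is therefore not secured by them.

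Levels of different genes depend on the length by which reads are divided. The deposited RPKM uses all annotated exons, and for *Pax6*, with 25 coding transcripts, these cover 19833 bp, against 8401 bp for its longest coding transcript. This ratio of 2.361 contrasts with 1.602 for *Pax3*, 1.163 for *Pax9* and 1.001 for *Pax7*. Per kb of the longest coding transcript, *Pax6* was at 631.1 in forebrain, *Pax3* at 287.2, *Pax7* at 134.9 and *Pax9* at 92.8. With all reads counted for each gene, the order of the 4 genes was the same on both scales, while the gap between *Pax6* and *Pax3* went from 1.49-fold to 2.2-fold. The ratio of 1 gene between samples does not depend on this length.

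**Figure D3:**
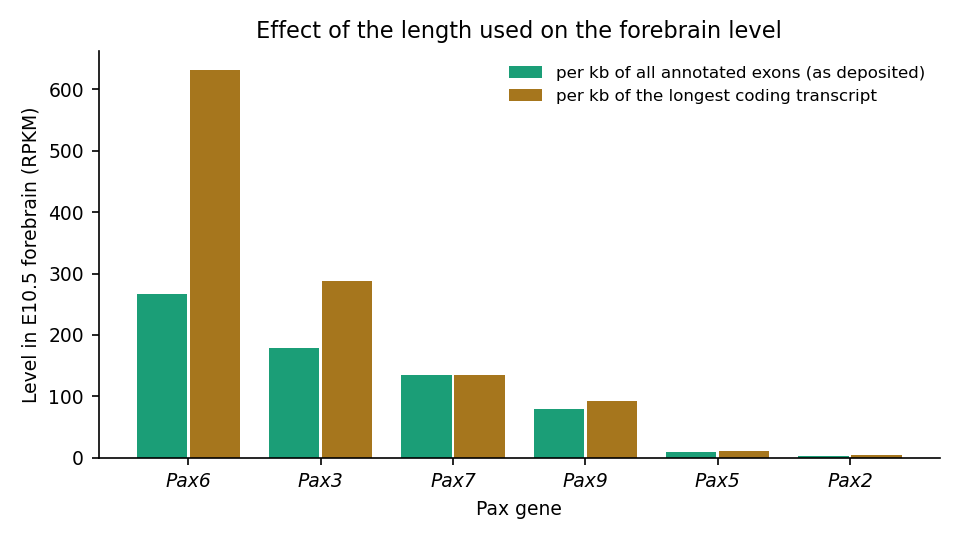
Level in the E10.5 forebrain sample (y axis, RPKM from 0) of the 6 highest *Pax* genes (x axis), per kb of all annotated exons as deposited and per kb of the longest coding transcript. *Pax6* goes from 267.32 to 631.1 and *Pax7* stays at 134.77 and 134.9.

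Promoter windows of 300 bases, from 250 bases before to 50 bases after the start, were read from RefSeq (GRCm38.p6, another build than that of the tables), which held 10 windows for 7 members (*Pax1*, *Pax2*, *Pax5*, *Pax6*, *Pax7*, *Pax8* and *Pax9*). Of these, 5 are shown, for *Pax6*, *Pax7* and *Pax9*, with the most reads in forebrain among members with a window, and for *Pax8*. *Pax8* is the member with the opposite direction. *Pax3*, second to *Pax6* in forebrain reads, had no window. Capitals mark CCAAT and GACGTCA on either strand, the latter being most of the cAMP response element TGACGTCA, which contains it.
*Pax6*, upstream start (chr2:105668646-105668945, plus strand): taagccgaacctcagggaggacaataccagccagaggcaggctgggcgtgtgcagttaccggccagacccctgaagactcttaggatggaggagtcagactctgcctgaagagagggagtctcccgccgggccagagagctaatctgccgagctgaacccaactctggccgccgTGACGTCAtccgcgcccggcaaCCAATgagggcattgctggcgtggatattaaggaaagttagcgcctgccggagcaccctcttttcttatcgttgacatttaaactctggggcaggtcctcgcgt
*Pax6*, downstream start (chr2:105682213-105682512, plus strand): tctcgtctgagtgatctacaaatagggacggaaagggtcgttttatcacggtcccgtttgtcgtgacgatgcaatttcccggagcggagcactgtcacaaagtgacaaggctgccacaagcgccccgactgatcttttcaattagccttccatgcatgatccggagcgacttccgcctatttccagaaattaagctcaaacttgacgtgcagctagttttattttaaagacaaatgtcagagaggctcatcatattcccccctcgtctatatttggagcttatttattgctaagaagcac
*Pax7* (chr4:139832919-139833218, minus strand): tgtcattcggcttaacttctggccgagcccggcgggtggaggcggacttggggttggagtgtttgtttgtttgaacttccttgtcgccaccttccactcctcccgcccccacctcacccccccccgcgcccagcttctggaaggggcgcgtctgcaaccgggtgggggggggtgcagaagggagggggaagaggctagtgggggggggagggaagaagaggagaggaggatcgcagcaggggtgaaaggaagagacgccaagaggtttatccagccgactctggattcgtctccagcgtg
*Pax9* (chr12:56695221-56695520, plus strand): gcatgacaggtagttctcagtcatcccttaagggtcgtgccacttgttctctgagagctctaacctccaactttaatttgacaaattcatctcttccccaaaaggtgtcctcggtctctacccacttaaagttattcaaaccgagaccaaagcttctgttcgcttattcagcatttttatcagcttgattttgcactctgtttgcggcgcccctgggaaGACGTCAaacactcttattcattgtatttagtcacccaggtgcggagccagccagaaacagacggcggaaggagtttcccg
*Pax8* (chr2:24475550-24475849, minus strand): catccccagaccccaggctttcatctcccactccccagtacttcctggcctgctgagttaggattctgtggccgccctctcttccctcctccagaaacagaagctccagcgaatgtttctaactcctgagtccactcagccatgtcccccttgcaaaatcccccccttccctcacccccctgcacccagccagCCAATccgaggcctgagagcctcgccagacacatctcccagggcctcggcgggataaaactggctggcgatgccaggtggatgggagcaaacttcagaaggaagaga
The upstream *Pax6* window holds the full TGACGTCA, as do 1.79% of 32851 windows of this length, and a CCAAT, as do 37.4%. GACGTCA was also found in the *Pax9* window and in 3.21% of all windows. TATAAA on either strand was in none of the 10 windows and in 13.6% of all. The 10 windows held between 7 and 30 CpG dinucleotides, with 18 and 16 in the *Pax6* windows, 17 for *Pax7*, 11 for *Pax9* and 7 for *Pax8*, and the median of all windows was 7. Which start was used in either sample cannot be told from values per gene.

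Genes related to *Pax* by sequence or by function were examined as lists. Each count is to be read beside the shares over all genes with a deposited value, 14.4% higher in forebrain and 11.3% higher in ES cells. Of the 25 listed paired-like homeobox genes, which carry a homeodomain related to that of *Pax* proteins, 19 were higher in forebrain and none was higher in ES cells, with a median difference of 3.68. Some were above every *Pax* gene in forebrain, such as *Alx1* and *Otx2*. *Alx1*, a regulator of craniofacial mesenchyme, went from 4.78 to 1448.49, and *Otx2*, which specifies the anterior brain, from 78.53 to 989.44. *Phox2a*, a determinant of autonomic neurons, stayed within 4-fold, at 90.57 and 143.51. Of 12 genes of the *Eya* and *Dach* families and their homeobox partners, whose products work with *Pax* proteins in eye and other organs, 10 were higher in forebrain, including *Eya2* (0.00 and 457.55) and *Dach1* (0.50 and 245.87), whereas *Six4* and *Eya3* were present in both samples within 4-fold.

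Cofactors of *Pax* proteins were for the most part within 4-fold, as were most genes with a deposited value. Of 9 genes only *Tle2*, a Groucho corepressor, was higher in forebrain, from 2.16 to 21.37. This share of 11.1% is near the 14.4% over all genes. None was higher in ES cells, and the median difference was -0.55. *Paxip1*, which links *Pax* proteins to histone methylation, had 677.62 in ES cells and 361.80 in forebrain. *Sox2*, a partner of *Pax6* in the eye, had 7181.95 and 2602.06. Apart from *Tle2*, each of the 9 cofactors had a higher level in ES cells than any *Pax* gene.

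Genes of the dorsal telencephalon, of which only some act downstream of *Pax6*, were higher in forebrain in 8 of 9 cases, with a median difference of 5.58. Whether any of them responded to *Pax6* here was not tested. *Neurog2*, a proneural factor, went from 0.55 to 399.98, *Fabp7*, a lipid-binding protein of radial glia, from 4.88 to 3551.25, and *Emx2*, a dorsal telencephalic homeobox gene, from 0.91 to 268.86. *Eomes*, which marks intermediate progenitors and also early mesendoderm, stayed within 4-fold, at 90.06 and 233.70. Eye field and optic vesicle genes were higher in forebrain in 8 of 10 cases, with *Lhx2* at 0.00 and 876.64 and *Vax1*, a ventral optic stalk gene, at 0.00 and 110.36. *Mitf*, which marks pigment cells and retinal pigment epithelium, was higher in ES cells, at 328.57 against 38.46.

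Around *Pax2*, *Pax5* and *Pax8*, the midbrain-hindbrain boundary genes were mixed. Of 6 genes, 3 (*Fgf8*, *Wnt1* and *Lmx1b*) were higher in forebrain, and *Gbx2* was higher in ES cells, at 459.98 against 8.98. *En1*, a defining gene of this territory, had 2.18 in ES cells and 8.03 in forebrain, and *En2* had 44.35 and 24.74. Of 7 B-cell genes none was higher in forebrain and 1, *Igll1*, a part of the pre-B-cell receptor, was higher in ES cells, at 10.16 against 0.00. *Ebf1*, a B-cell factor that is also active in neurons, had 81.82 in ES cells and 121.64 in forebrain. Of the 6 listed kidney and thyroid genes, *Gata3* and *Emx2* were higher in forebrain, and *Emx2* is also 1 of the forebrain markers. The other 4 stayed within 4-fold. These were *Wt1* (0.20 in ES cells and 0.66 in forebrain), *Tg* (1.24 and 1.89), *Ret* (6.90 and 26.76) and *Foxe1*, which was lower in forebrain (3.79 and 0.58). Of the 6 listed pancreatic endocrine genes, 3 were higher in forebrain, including *Nkx2-2* and *Neurod1*, both of which are also active in the nervous system, whereas *Pdx1*, which defines pancreas, had 1.41 and 0.00.

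The lists for the territories of *Pax3*, *Pax7*, *Pax1* and *Pax9* were examined in the same way. Of 9 roof plate and neural crest genes, with a summed RPKM of 299.77 in ES cells and 3590.06 for the forebrain, 6 were higher in forebrain, among them *Msx1* (9.46 and 1491.72), *Zic1* (5.43 and 777.75) and *Lmx1a* (1.08 and 173.69), while *Foxd3*, which is also a gene of pluripotent cells, was higher in ES cells (214.40 and 19.43) and *Sox10*, a defining marker of migrating neural crest, had 9.90 and 20.68. *Tfap2a*, another neural crest gene, had 19.95 and 43.82. All 6 sclerotome and pharyngeal genes were higher in forebrain, with a summed RPKM of 20.03 in ES cells and 1744.36 in forebrain, most of it from *Twist1*, a mesenchymal factor, at 1556.07. None of these 15 genes was at 0 in forebrain. *Tbx1*, a defining gene of the pharyngeal region, was at 17.64 and *Foxc2* at 131.90. From the paired-like homeobox list, *Prrx1* and *Alx4*, known for head and limb mesenchyme, reached 399.55 and 767.35. The part of such cells in the forebrain levels of *Pax3*, *Pax7* and *Pax9* was not tested. Of 5 myogenic genes, *Myf5* alone was higher in forebrain, at 1.17 and 10.62, and *Myod1*, at 0.66 and 1.33, rested on 3 reads there.

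**Figure D4:**
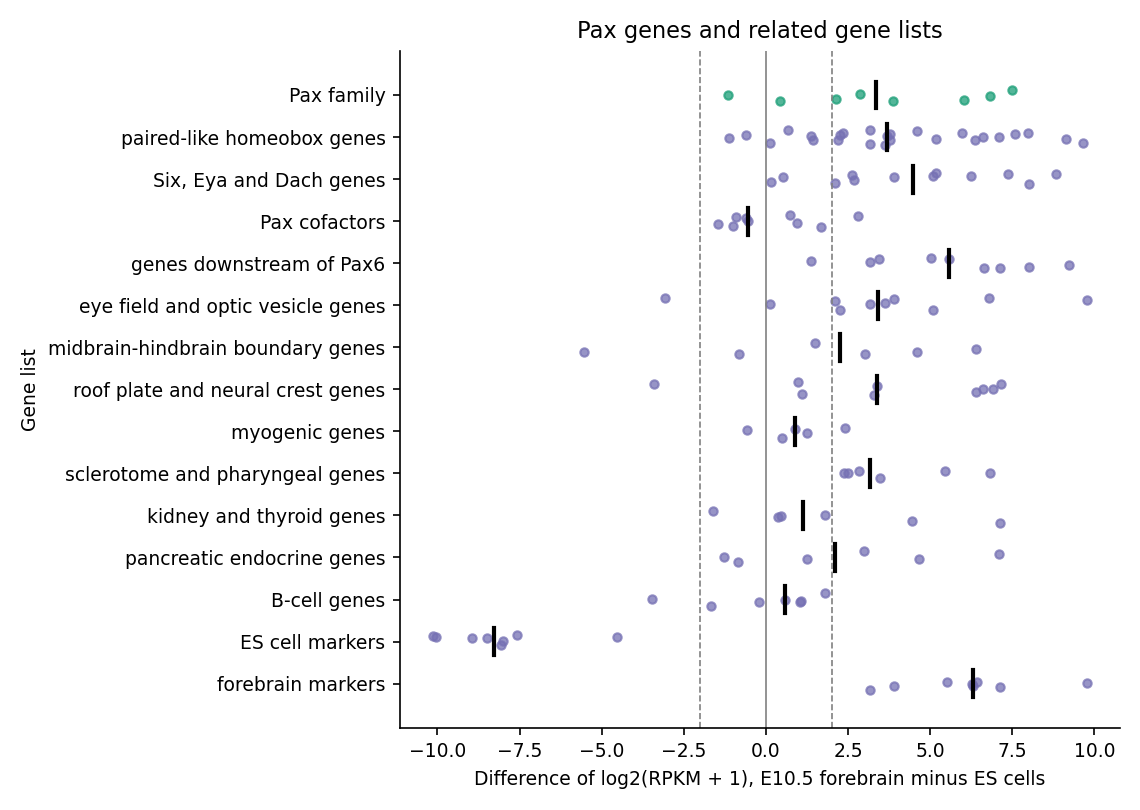
Difference of log2(RPKM + 1) between the E10.5 forebrain sample and the ES cell sample (x axis) for each listed gene of 15 lists (y axis); points are genes, black bars are medians over listed genes, and dashed lines mark 4-fold. The medians run from -8.28 for ES cell markers to 6.29 for forebrain markers, with 3.36 for the 8 listed *Pax* genes and -0.55 for *Pax* cofactors. The list labelled as downstream of *Pax6* holds dorsal telencephalic genes, of which only some act downstream of it.

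The labelled cell type and tissue were checked against markers. All 8 ES cell markers were higher in ES cells, with *Pou5f1* at 11243.84 and 42.90, and all 8 forebrain markers were higher in forebrain, with *Dlx1*, a gene of ventral forebrain progenitors, at 2.26 and 255.62. The genes nearest to *Pax6* in their pair of levels, by distance on log2(RPKM + 1) over the 2 samples, were *Rab39b* (18.31 and 264.68), *Mmp15*, *Mecom*, *Dlg4* and *Tmem176b*, at distances of 0.06 to 0.104. With 2 samples this likeness is a pair of similar values only.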

How the data were processed

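Total RNA of 1 ES cell sample and 1 E10.5 forebrain sample was sequenced from rRNA-depleted, strand-specific single-end libraries. The methods of the study and the labels differ in read length and in the pipeline named. The authors mapped reads to NCBIM37 (mm9), with Bowtie 0.12.7 per the submitters' processing notes, and deposited 1 RPKM value per gene and sample, whose scaling between samples is not given in the sources used here.

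Values were used as deposited. Gene symbols, exon lengths and overlaps came from the annotation of the same build, which matched all 29311 genes. Values multiplied by exon length in kb mostly fell on multiples of a step, taken as 1 read, that was 1.221 for the ES cells and 0.8193 for the forebrain. Of the genes with low values used, 58.9% of 5463 and 60.3% of 5305 lay within 0.05 of a whole multiple. Reads were rounded, which covers reads that the counting may have split. Single values carry exact Poisson 95% intervals and ratios Clopper-Pearson intervals. Without replicates no test between samples was made, and called means a 4-fold difference on log2(RPKM + 1), which understates changes of low genes. A floor of 3 reads was used for lower limits. The step was tested on simulated data made of whole reads, where values fall on its multiples by construction. That test does not cover the values here that lie off a whole multiple.

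Members and gene lists were chosen with earlier results of these data known. All members were named; from the lists, those that reach an RPKM of 20 in 1 sample or define the list; genes that overlap or flank a member; and the 5 genes nearest to *Pax6*. Not every gene that meets this rule is described. Some genes of the lists are counted but not reported singly here. A comparison of protein sequences was planned and was not made. The symbol *Ebf1* has several identifiers, of which the one with more exon sequence was used. Alternatives covered pseudocounts of 0.1 and 5, scaling, the fold threshold, filters, *Pax6* left out, and, added after the data were seen, transcript length and reads of antisense genes. Scripts ran under Python 3.11.15 with pandas 2.3.3, numpy 2.4.6 and scipy 1.17.1, and plots were drawn by matplotlib 3.10.9.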

Additional observations from a re-analysis of the deposited data

How the results depend on the processing

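Of 90 alternative values, 15 were chosen after seeing the data. None reversed a direction, but most could not have done so. A change of pseudocount, length or threshold cannot reverse the sign for a single gene. The scalings changed forebrain relative to ES cells by factors of only 0.9408 to 1.208. The alternatives therefore bear on sizes and counts, not on directions. The number of *Pax* genes higher in E10.5 forebrain was 6, and was 4 with a pseudocount of 5 or a threshold of 8-fold. It fell to 2 (*Pax3* and *Pax6*) with reads per kb per 1000000 reads, a scale on which the pseudocount of 1 is large against the values and only 3.55% of all genes were called in this direction. The number higher in ES cells was 0, and 1 (*Pax8*) with a threshold of 2-fold. The median difference of 2.87 became 4.30 with a pseudocount of 0.1, 0.23 with reads per kb per 1000000 reads and 3.86 over genes with at least 10 reads in either sample. The ratio of summed levels, 29.93, became 36.16 when both samples were scaled to the same sum, where the median difference of all genes was 0.26 against 0.01 as deposited, 80.93 without *Pax6*, and 22.5 with transcript length. Of the 6 *Pax* genes above 0 in ES cells, 2 had an RPKM of at least 1 and 3 had at least 3 reads. Among single genes, the difference of *Pax6* lay between 2.27 and 4.11 and that of *Pax8* between -1.67 and -0.06. No paired analysis was possible because each group is 1 sample, and for the same reason no sample could be left out. The depth limits *Pax1*, *Pax2*, *Pax4*, *Pax5* and *Pax8*, and the ES cell values of *Pax3*, *Pax7* and *Pax9*.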
